A study of Drosophila melanogaster with 18 samples.

Results

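The RNAs described here are the small nucleolar RNAs (snoRNAs) and small Cajal body-specific RNAs (scaRNAs) of the fly head. They were taken from the gene count table by their FlyBase symbol, which begins with snoRNA: or scaRNA:, and by a total of at least 50 counts over the 18 libraries. Of 258 such genes in the table, 149 reached this total, 109 did not, and 22 of the latter had 0 counts in every library. Total RNA came from heads of adult flies of the wild-type strain w1118 and of Δmimi flies, in which a CRISPR deletion that starts upstream of the transcription start site removes expression of mimi, a long noncoding RNA. The heads of both sexes were pooled in large numbers, no fly received a treatment, and each genotype gave 3 preparations. Each preparation gave a lysate. The supernatant of its low-speed spin was divided and pelleted at higher speed, and the pellet was taken as it was (granules 1) or after a wash with detergent (granules 2), so the libraries form 6 groups of 3. Both granule fractions of a preparation come from its lysate, and comparisons of granules 1 and of granules 2 therefore share their lysate libraries.

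Most snoRNAs work in the nucleolus as guides that base-pair with ribosomal RNA. H/ACA snoRNAs direct the conversion of uridine to pseudouridine by the enzyme Nop60B, and C/D snoRNAs direct methylation of the ribose by fibrillarin (Fib). A few, U3 among them, are needed for cleavage of the ribosomal RNA precursor instead. scaRNAs do the same kind of work on spliceosomal RNAs in Cajal bodies. In animals most of these RNAs are cut out of introns of other genes, which are called hosts. Symbols with Psi or aca were read here as H/ACA names and symbols with Me or CD as C/D names, while scaRNAs were kept apart. By this reading there were 101 H/ACA names, 10 C/D names, 12 scaRNAs and 26 symbols that show no class. When every name with Psi was set against every name with Me or Or, the numbers were 103 and 20, with 26 in neither.

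Library totals ranged from 3635256 to 7798946 counts, and 138 of the 149 RNAs had at least 1 count in every library. Levels are CPM, which are read counts scaled to a common library size with edgeR's TMM factors, and errors of levels are SD over 3 libraries. mimi had 947 to 1491 CPM in wild-type lysates and 11.8 to 15.9 CPM in Δmimi lysates, so the deletion was visible in each of these libraries. All listed markers of neurons (4 of 4, summed 985 to 1856 CPM), photoreceptors (3 of 3) and glia (3 of 3, summed 825 to 1323 CPM) were present in every group, as the label of head tissue requires. Germline markers, of which 3 of 5 listed were found by symbol, summed to 5.23 to 12.2 CPM in wild type and to 17.8 to 107 CPM in Δmimi. Muscle markers ranged over 4957 to 16924 CPM in wild type and 4857 to 20476 CPM in Δmimi, with replicate 2 highest in every group, and the fat body list was between 530 and 2066 CPM in wild type and between 1199 and 1738 CPM in Δmimi. Testis (up to 3.87 CPM) and midgut (up to 12.1 CPM) markers were near 0. What part these differences have in the results below was not tested.

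Detection differed by class and by length. Among H/ACA names, 101 of 111 (91.0%) reached 50 counts, of the scaRNAs 12 of 15 (80.0%), of the symbols without class 26 of 50 (52.0%) and of the C/D names 10 of 82 (12.2%). The median length was 140 bases for H/ACA names and 78 bases for C/D names. By length alone, 11 of 98 genes (11.2%) below 100 bases, 6 of 17 (35.3%) of 100 to 129 bases, 113 of 124 (91.1%) of 130 to 159 bases and all 19 longer ones, 10 of them below 200 bases, reached the total. Class and length therefore cannot be told apart in these numbers, and the part of the library preparation in them was not tested. The genes just inside the limit were Psi18S-525f with 50 counts, Psi28S-1192d, scaRNA:PsiU6-40 and abba-a with 53 each and Me18S-C1831 with 54. Just outside were kis-a with 47 counts, Psi18S-640f and Edc3-a with 44 each and Psi18S-525d and Me18S-C1096 with 42 each.

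**Figure D1:**
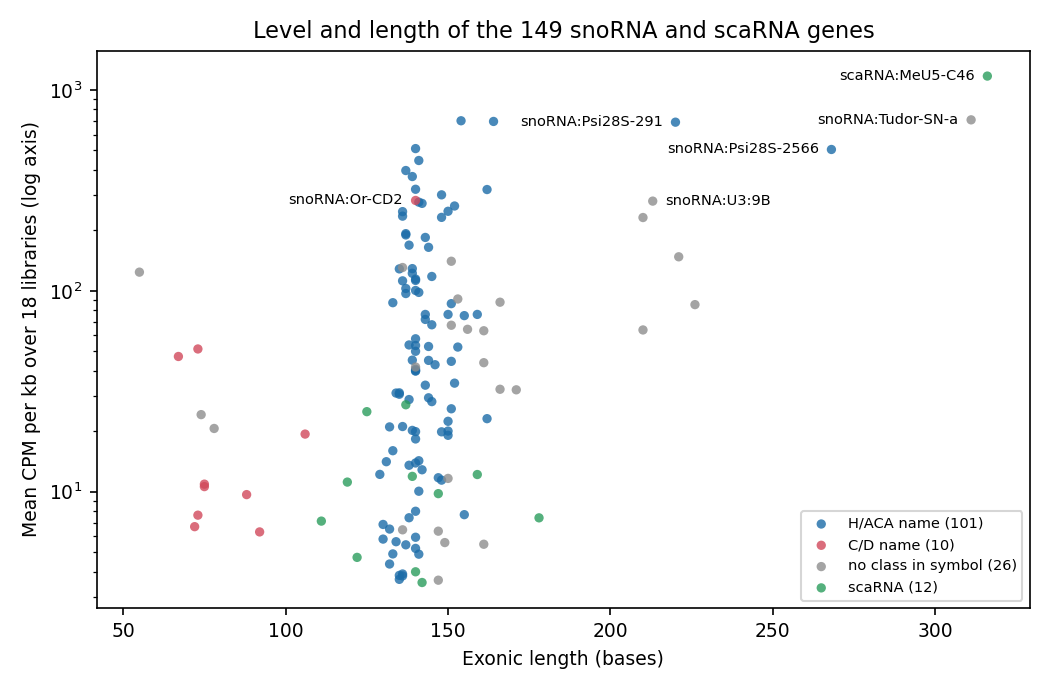
Exonic length in bases against the mean CPM per kb over 18 libraries (log axis) for each of the 149 RNAs, coloured by the class that the symbol shows, with the number of genes in brackets. The 9 RNAs of 200 bases or more lie at 63.9 to 1173 CPM per kb, while the median of the others is 31.6 CPM per kb.

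The counts were held by few RNAs. Together the 149 RNAs had 280832 counts, which was 0.224% to 0.365% of a library, and the 6 most counted held 41.4% of these. scaRNA:MeU5-C46, named for a methylation site on the U5 spliceosomal RNA, had 38643 counts, snoRNA:Tudor-SN-a 23768, snoRNA:Psi28S-291 16090, snoRNA:Psi28S-2566 14667, snoRNA:Psi28S-3342 11786 and snoRNA:Psi18S-176 11250. Per length the order was scaRNA:MeU5-C46 with 1173 CPM per kb, Tudor-SN-a with 710, Psi18S-176 with 703, Psi28S-3342 with 698 and Psi28S-291 with 692 CPM per kb, and only scaRNA:MeU5-C46 stands apart in it. Across the 149 RNAs, length and CPM per kb had a Spearman correlation of 0.35, as a description of RNAs that share libraries and length-dependent recovery. The median level was 44.6 CPM per kb for H/ACA names, 10.8 for C/D names, 10.5 for scaRNAs and 63.6 for symbols without class.

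The RNAs were mostly intronic. In the annotation of the BDGP6 (dm6) assembly 137 of the 149 lie in an intron of a gene on the same strand, spread over 61 hosts, and 12 have no host. None of the 149 overlaps an exon on its own strand and 4 overlap an exon on the other strand (Me28S-G3253, CG31191-a, Or-CD2 and Or-aca4). RpS5a, a gene of the small ribosomal subunit, holds 14 of them, dom, a chromatin remodeller, holds 12, the translation factor gene kra and the actin regulator gene Arpc2 hold 8 each, and RpS7 and the hnRNP gene Hrb98DE hold 7 each. Ribosomal protein genes hold 47. The 12 without host include all 3 U3 genes, Psi18S-176, Psi28S-3342 and Or-aca4, and their median level was 132 CPM per kb against 32.2 CPM per kb for those with a host. Many symbols form series that differ by a last letter, such as Psi18S-1377a to Psi18S-1377e. How reads that fit several such copies were counted is not stated, so values of single copies are uncertain.

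In the lysates, which show how deletion of mimi relates to the content of these RNAs in the head, none of them passed the test. A gene was called if its adjusted p was under 0.05 and its log2 fold change above 0.5 in size in the quasi-likelihood F test of edgeR, with Benjamini-Hochberg adjustment over all genes that had a mean normalised count (base mean) above 10. Of the 149 RNAs, 109 passed that filter, 0 were higher and 0 lower in Δmimi, and 10 had an unadjusted p under 0.05. Over all 9770 genes tested, 0.86% were called higher, 0.778% lower and 13.9% had such an unadjusted p. The median log2 fold change was -0.03 for the RNAs and -0.01 for all genes. DESeq2 called 1 of them, Psi18S-1377a. In bulk tissue fewer cells of a type and less RNA per cell cannot be told apart.

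Wild-type and Δmimi preparations share replicate numbers, but the labels do not say whether those of one number were made together. With the number as a block, 5 of the 109 RNAs were lower in Δmimi lysates and 0 higher. In that fit 4.03% of all genes were called lower and 5.45% higher, so the share called lower was near the background. The 5 were Psi18S-1347b from pAbp, the gene of the cytoplasmic poly(A)-binding protein, Psi18S-1377a and Psi18S-1377b from RpS7, Psi18S-1389b from dom and lola-d from the transcription factor gene lola. They were chosen for this after their values had been seen. Psi18S-1347b had 9.36, 11.5 and 10.3 CPM in wild-type lysates and 5.85, 5.45 and 5.29 CPM in Δmimi lysates. Its groups do not overlap, and the log2 fold change was -0.91 ± 0.18 (SE) with an adjusted p of 0.063 by edgeR without the block and 0.010 with it. Psi18S-1377a had 40.7, 41.2 and 63.0 CPM in wild type and 29.7, 25.0 and 30.2 CPM in Δmimi, again without overlap, with a log2 fold change of -0.77 ± 0.20 and adjusted p of 0.13 by edgeR and 0.0022 with the block. For Psi18S-1377b the groups overlapped, with 16, 14.3 and 28.5 CPM against 13.8, 4.92 and 17.0 CPM.

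In some hosts all RNAs tested lay on the same side in the lysates. All 7 RNAs of RpS7 had log2 fold changes below 0 (-0.77 to -0.09), as did all 4 of lola (-0.75 to -0.52), the 3 of pAbp (-0.91 to -0.24), the 4 of RpS16 (-0.27 to -0.13) and the 3 of RpL17 that were tested. None of these passed the test without the block. Other hosts were mixed. In RpS5a 7 of 12 lay above 0, in kra 4 of 8, in dom 2 of 8 and in Hrb98DE 4 of 6. In CG10576 it was 2 of 4, in RpS4 2 of 3 and in Sf3b3 1 of 3. The host genes themselves had log2 fold changes of 0.05 ± 0.15 for RpS7, 0.03 ± 0.13 for pAbp, 0.01 ± 0.16 for RpS16 and 0.01 ± 0.14 for RpL17. lola is not analysed here, since its identifier was not matched. RNAs of one host are cut from one transcript and are not independent of each other. Some are also lettered copies, such as Psi18S-1377a and Psi18S-1377b in RpS7, which may share reads.

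**Figure D2:**
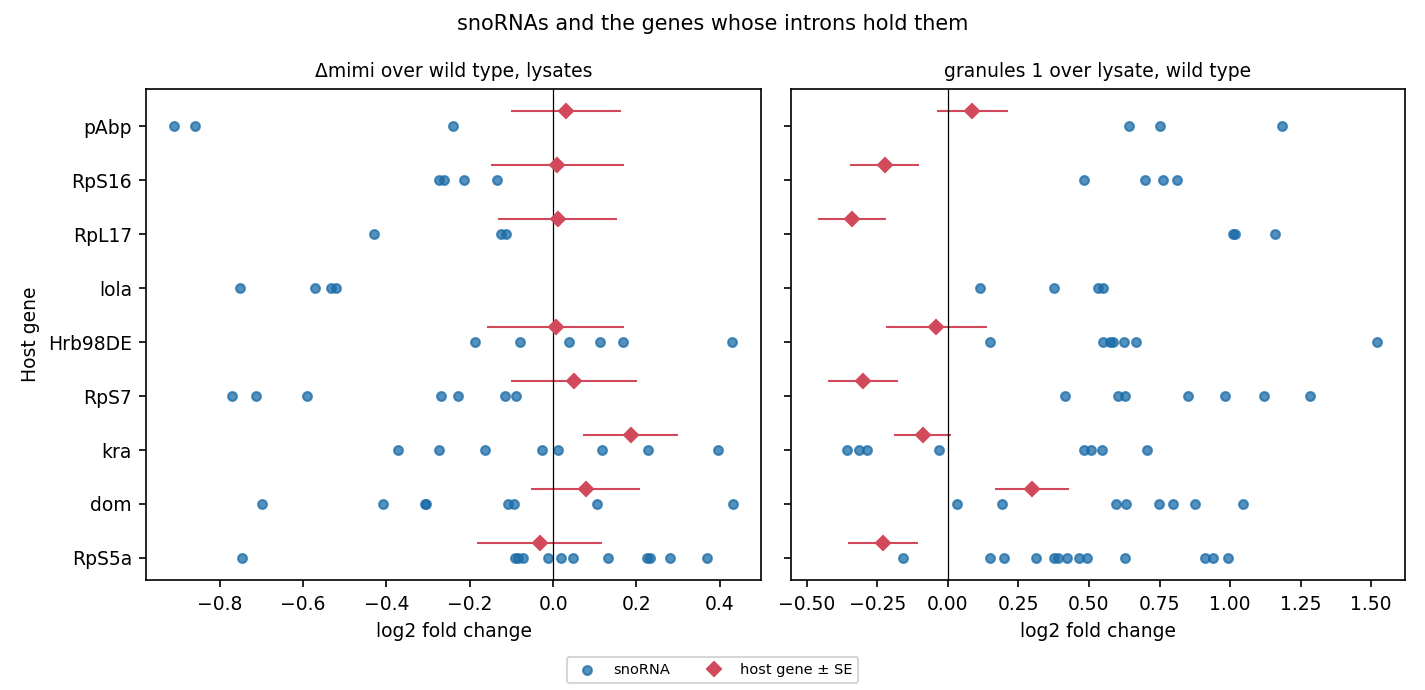
Log2 fold changes of the snoRNAs (blue) in 9 host genes and of the host gene itself (red diamond with SE), for Δmimi over wild-type lysates on the left and for granules 1 over lysate in wild type on the right. All 7 snoRNAs of RpS7 lie below 0 on the left and above 0 on the right, while RpS7 itself is at 0.05 and -0.30.

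One RNA was near 0 in one genotype. snoRNA:Psi18S-525c, an H/ACA name from Arpc2 on chromosome 2L (20418834 to 20418967, plus strand), had 1, 1 and 0 counts in wild-type lysates and 7, 6 and 12 counts in Δmimi lysates. In granules 1 the counts were 0, 1 and 0 against 8, 8 and 9, and in granules 2 they were 0, 0 and 1 against 7, 9 and 7. Every Δmimi library thus lay above every wild-type library. The ratio of the summed lysate counts at equal depth was 14.6, with an exact 95% binomial interval of 3.63 to 127 that covers counting error only. With 77 counts it was too low for the filter, and without the filter its log2 fold change was 3.65 ± 0.80 with an adjusted p of 0.058 by edgeR, which does not pass. It was singled out after its values had been seen. Among its neighbours, Psi18S-525e had 4, 5 and 2 counts in wild-type lysates and 4, 8 and 3 in Δmimi lysates. Psi18S-525i had 5, 3 and 3 against 0, 2 and 1, and neither of these shared the pattern. Psi18S-640d, also from Arpc2, was higher by value in Δmimi, with 7, 5 and 12 against 13, 15 and 9 lysate counts. These overlap, and its log2 fold change of 0.80 ± 0.47 did not pass. Whether reads of near-identical copies were exchanged was not tested.

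Each granule fraction was set against the lysates of its genotype, which asks what pellets along with granules. In wild-type granules 1, 114 of the 149 RNAs were tested, 85 of them had a log2 fold change above 0, and their median was 0.42 where the median of all 9743 genes was -0.04 and 45.4% of genes lay above 0. In granules 2 it was 84 of 108 with a median of 0.46, where all genes were again at -0.04. The median in granules 1 depended on replicate 2, without which it was 0.15, while in granules 2 it was then 0.33. H/ACA names lay highest. Their median was 0.55 in granules 1, with 69 of 83 above 0, and 0.60 in granules 2, with 67 of 78 above 0. The 4 C/D names tested had medians of -0.44 and -0.42, with 1 of 4 above 0 in each fraction. All names with Me or Or together had medians of 0.12 in granules 1 (6 of 11 above 0) and 0.15 in granules 2 (6 of 10 above 0). That group adds scaRNAs and Or-aca names, the latter read here as H/ACA, so it does not describe the C/D names alone. Symbols without class had medians of 0.11 and 0.14, and the 6 scaRNAs tested had -0.11 and 0.13.

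**Figure D3:**
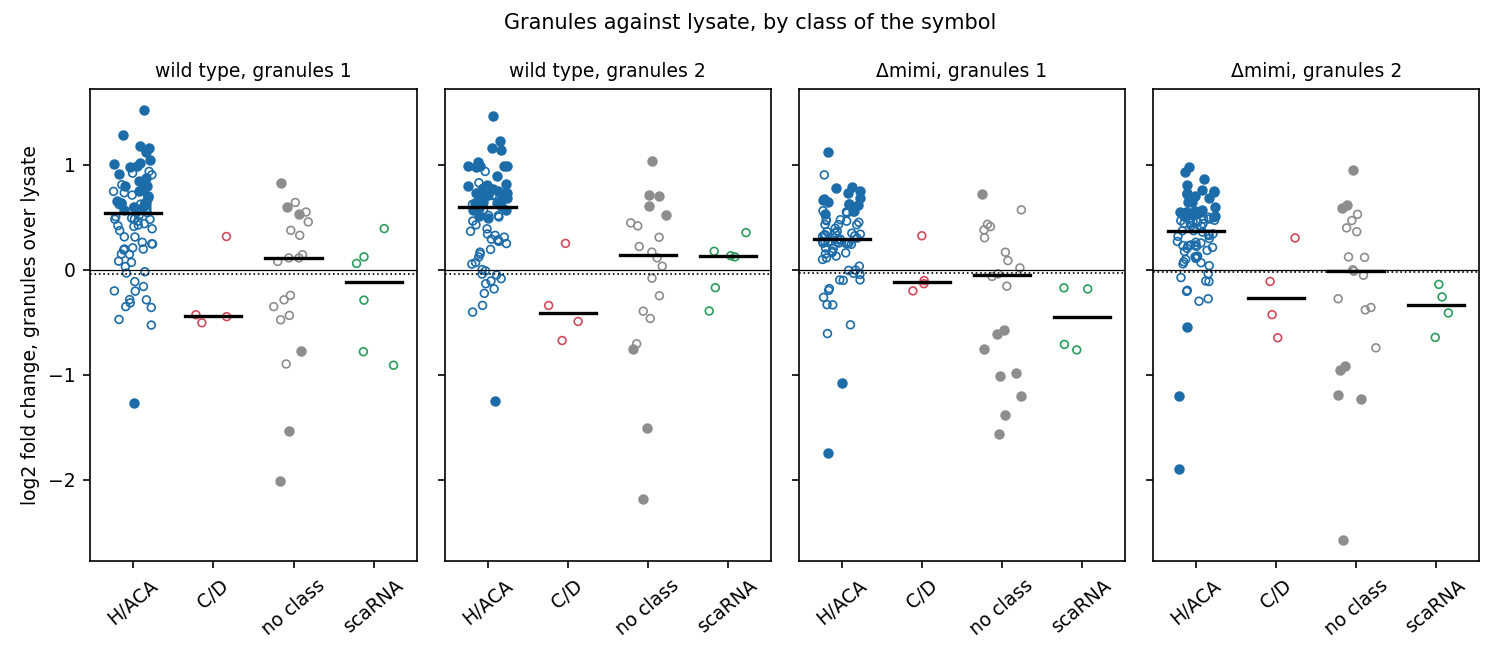
Log2 fold change of granules over lysate (vertical axis) for the RNAs tested in each genotype and fraction, by class of the symbol. Filled points were called in the fit with the replicate block, bars are class medians, and the dotted line is the median of all genes. The H/ACA median is 0.55 and 0.60 in wild type and 0.30 and 0.37 in Δmimi.

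Single calls were few by edgeR without the block, a fit that leaves out the pairing of lysate and granules within a preparation. DESeq2 without the block called more of them, but its share over all genes is not given here. In wild-type granules 1, 4 RNAs rose and 2 fell by edgeR, where 4.81% of all genes rose and 3.36% fell. The share of calls among the 114 RNAs was near the background in that fit. In granules 2, 7 of 108 rose and 2 fell, where 5.43% and 4.06% of all genes did. The replicate block takes the pairing into account. With it 30 of the 114 rose and 4 fell in granules 1, while 7.29% of all genes rose and 9.44% fell. In granules 2, 42 of the 108 rose and 4 fell, while 7.94% of all genes rose and 10.1% fell. The share that rose was thus above that of all genes in both fractions of this fit. Of the 30, 27 had H/ACA names, and of the 42, 37. The calls without the block changed when a preparation was left out. In granules 1 there were 0 without replicate 1, 10 without replicate 2 and 0 without replicate 3, and in granules 2 there were 2, 6 and 0. These fits hold fewer libraries, and their shares over all genes are not given here. Whether the changes are particular to these RNAs was not tested. Replicate 2 was the preparation with the highest muscle markers, and the part of this in the calls was not tested.

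The 4 RNAs that rose in both wild-type fractions had H/ACA names for sites on 28S rRNA. snoRNA:Psi28S-3436a, from RpL17 on the X chromosome (6742686 to 6742826, minus strand), had 40, 44.4 and 51.8 CPM in lysates, 71.9, 145 and 89.4 CPM in granules 1 and 72.3, 113 and 92.1 CPM in granules 2. All granule libraries lay above all lysates, and the log2 fold changes were 1.16 ± 0.25 (adjusted p = 0.032, edgeR) and 1.03 ± 0.17 (adjusted p = 0.012, edgeR). Its neighbour Psi28S-3436b, in the same host, had 18.4, 15.9 and 24.4 CPM in lysates and 29.7, 51.0 and 38.3 CPM in granules 1, a log2 fold change of 1.01 ± 0.23 with an adjusted p of 0.038 by edgeR, and 0.99 ± 0.23 in granules 2. The host RpL17 encodes a protein of the large ribosomal subunit and was at -0.34 ± 0.12 in granules 1, which did not pass the test.

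snoRNA:Psi28S-2626, from RpS7 on chromosome 3R (30207898 to 30208039, minus strand), had 25.7, 29.9 and 35 CPM in lysates, 40.6, 67.6 and 56.5 CPM in granules 1 and 38.4, 55.5 and 60.6 CPM in granules 2. The groups did not overlap, and it rose by 0.85 ± 0.20 and 0.77 ± 0.19 on the log2 scale, with adjusted p of 0.042 and 0.043 by edgeR. snoRNA:Psi28S-3305a, from Hrb98DE, had the largest log2 fold change of the RNAs that rose, 1.52 ± 0.31 in granules 1 and 1.47 ± 0.38 in granules 2 (adjusted p = 0.026 and 0.048, edgeR). It is low, with 2.20, 1.74 and 1.54 CPM in lysates and 5.39, 6.85 and 3.75 CPM in granules 1. Another 3 RNAs passed in granules 2 and not in granules 1, while the test between the fractions called none: Psi28S-1180 from tou (1.14 ± 0.22), SC35-b from the splicing factor gene SC35 (1.04 ± 0.23) and Psi28S-1175b from RpS16 (0.77 ± 0.18).

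Other RNAs fell in the same fractions. snoRNA:229, whose symbol shows no class and which lies in an intron of Fib on chromosome 2R (23073829 to 23073968, minus strand), had 11.6, 9.49 and 12.9 CPM in wild-type lysates, 3.33, 3.20 and 1.79 CPM in granules 1 and 2.52, 1.89 and 3.02 CPM in granules 2. It fell by 2.02 ± 0.26 on the log2 scale in granules 1 (adjusted p = 0.0042, edgeR) and by 2.19 ± 0.24 in granules 2 (adjusted p = 0.0016, edgeR). In Δmimi it had 8.99, 12.7 and 9.07 CPM in lysates, 5.40, 3.43 and 2.89 CPM in granules 1 and 3.33, 4.79 and 5.05 CPM in granules 2, and fell by 1.38 ± 0.29 and 1.23 ± 0.25 (adjusted p = 0.040 in both, edgeR). No granule library reached the lowest lysate of its genotype. The host Fib was at -0.36 in wild-type granules 1 and did not pass.

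snoRNA:Psi28S-2566, an H/ACA name of 268 bases from CG3902 on chromosome 3L (18896189 to 18896456, minus strand), had 192, 287 and 213 CPM in wild-type lysates, 84.4, 150 and 55.4 CPM in granules 1 and 89.5, 135 and 64.7 CPM in granules 2. The granule libraries lay below all lysates, yet the log2 fold change of -1.27 ± 0.34 in granules 1 missed the threshold (adjusted p = 0.062, edgeR) and passed with the replicate block (adjusted p = 1.8e-05). In granules 2 it fell by 1.25 ± 0.27 (adjusted p = 0.027, edgeR). In Δmimi the values were 182, 307 and 257 CPM in lysates, 67.9, 88.3 and 66.9 CPM in granules 1 and 48.1, 86.3 and 65.5 CPM in granules 2, and it fell by 1.75 ± 0.21 and 1.89 ± 0.25 (adjusted p = 0.0052 and 0.0097, edgeR). The host CG3902 had log2 fold changes of 0.18 in wild-type and 0.33 in Δmimi granules 1, so intron-derived RNA and host did not lie on the same side. snoRNA:684, of 78 bases from CG10576, fell by 1.53 ± 0.32 in wild-type granules 1 (adjusted p = 0.029, edgeR), from 2.20, 3.07 and 3.26 CPM to 0.952, 0.913 and 1.07 CPM.

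**Figure D4:**
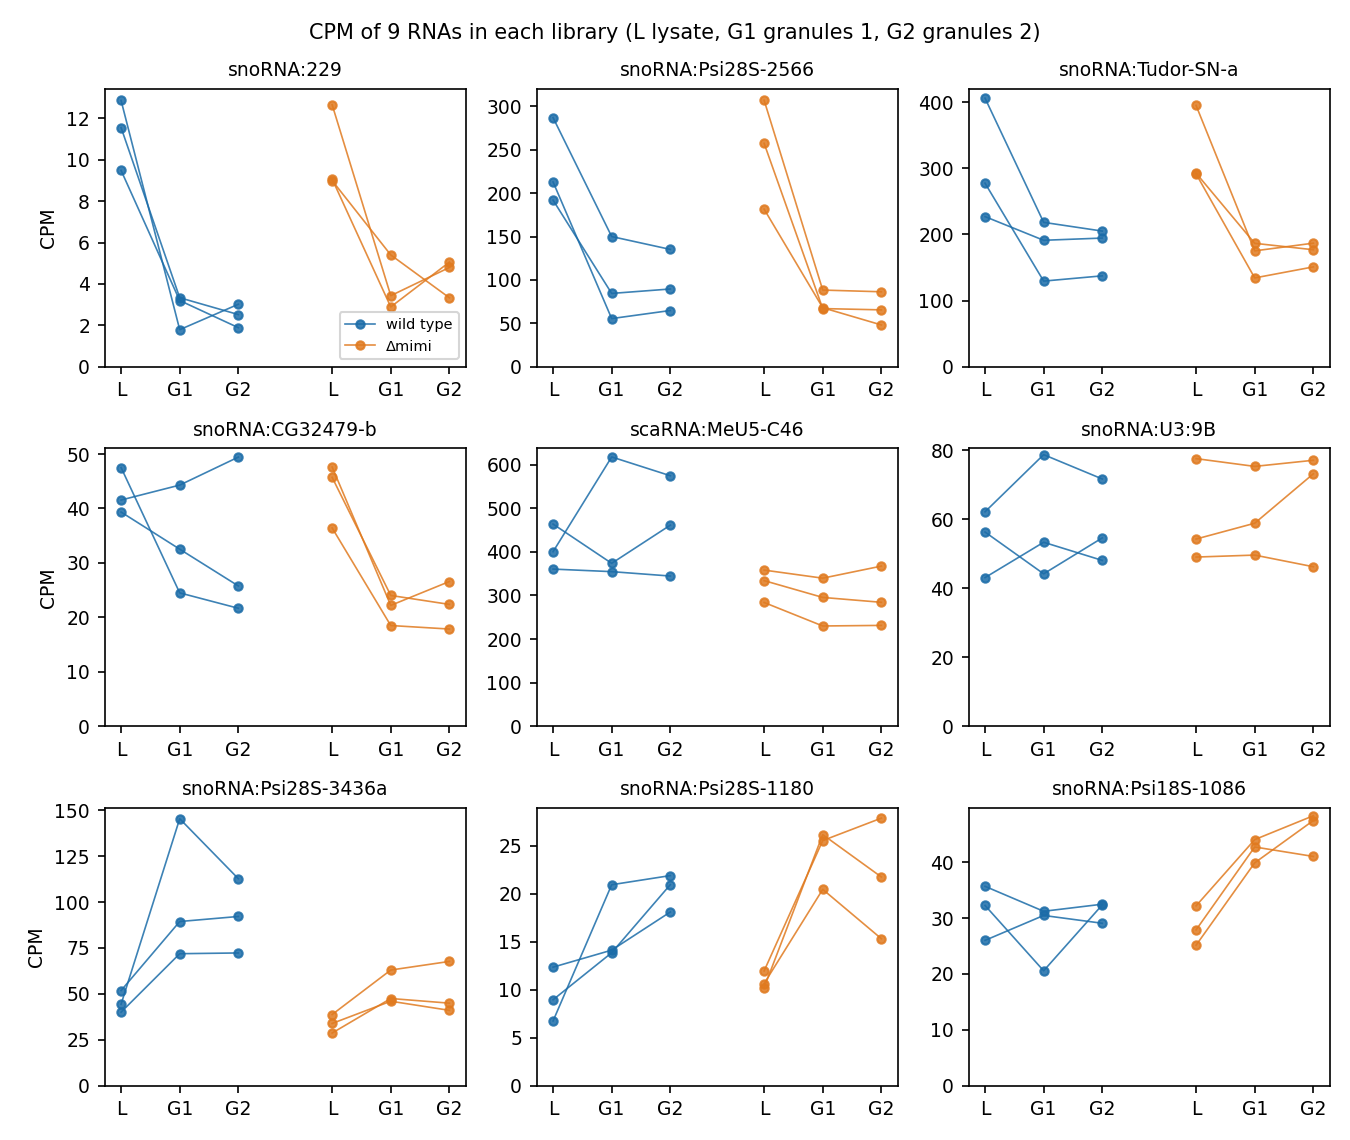
CPM (vertical axis, from 0) of 9 RNAs in each library, with the lysate, granules 1 and granules 2 of a preparation joined by a line, wild type in blue and Δmimi in orange. snoRNA:229, Psi28S-2566 and Tudor-SN-a are lower in both granule fractions than in the lysate of all 6 preparations, Psi28S-3436a and Psi28S-1180 are higher in all 6, and U3:9B and scaRNA:MeU5-C46 do neither.

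The RNAs of at least 200 bases had medians below 0 in all 4 granule comparisons. The 9 RNAs of at least 200 bases had median log2 fold changes of -0.35 and -0.34 in wild-type granules and -0.62 and -0.55 in Δmimi granules, with 3, 3, 1 and 1 of the 9 above 0. The RNAs below 200 bases had medians of 0.48, 0.52, 0.28 and 0.34. Within the shorter RNAs length and log2 fold change had Spearman correlations of 0.02 and -0.01 in wild type (105 and 99 RNAs) and 0.20 and 0.24 in Δmimi (97 and 99 RNAs). The 5 RNAs below 100 bases that were tested in wild-type granules 1 all lay below 0, with a median of -0.45. The group of 9 includes 3 U3 copies and 2 RNAs of the host Usp10, a ubiquitin protease, so it is not 9 independent RNAs, and the part of fragment length in these values was not tested.

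snoRNA:Tudor-SN-a, of 311 bases from Tudor-SN, a gene of a nuclease of the RNA silencing complex, had 227, 406 and 278 CPM in wild-type lysates, 191, 218 and 129 CPM in granules 1 and 195, 205 and 137 CPM in granules 2. The difference of -0.77 ± 0.26 in granules 1 missed the threshold (adjusted p = 0.11, edgeR) and passed with the replicate block (adjusted p = 7.9e-04). In Δmimi it had 293, 395 and 292 CPM in lysates and 187, 175 and 134 CPM in granules 1, and fell by 0.99 ± 0.17 there and by 0.92 ± 0.16 in granules 2 (adjusted p = 0.024 and 0.025, edgeR). Psi18S-996, in another intron of the same host, fell by 1.08 ± 0.23 and 1.21 ± 0.24 in the Δmimi fractions (adjusted p = 0.045 and 0.041, edgeR) and was at -0.20 and -0.18 in wild type. The Tudor-SN gene itself was at 0.15 in wild-type and 0.40 in Δmimi granules 1. The RNAs of Usp10, CG32479-a and CG32479-b, had 22.2, 37.6 and 24.6 CPM and 36.4, 45.7 and 47.6 CPM in Δmimi lysates. CG32479-b fell by 1.01 ± 0.16 and 0.96 ± 0.17 in Δmimi granules 1 and 2 (adjusted p = 0.016 and 0.032, edgeR) and CG32479-a by 1.19 ± 0.24 in granules 2 (adjusted p = 0.041, edgeR). In wild type neither passed, and replicate 2 stood apart there: CG32479-a had 13.5, 35.5 and 6.97 CPM in granules 1 against 17.5, 32.1 and 28.1 CPM in lysates.

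Of the 3 U3 genes, U3:9B and U3:54Aa were not called in any granule comparison, and U3:54Ab was called in Δmimi granules 1 by some of the fits. U3:9B, on the X chromosome (10348125 to 10348337, plus strand), had 43.1, 62.1 and 56.3 CPM in wild-type lysates, 53.3, 78.7 and 44.2 CPM in granules 1 and 48.1, 71.7 and 54.6 CPM in granules 2, a log2 fold change of 0.11 ± 0.23 and 0.11 ± 0.19. In Δmimi it was at 0.02 ± 0.22 and 0.12 ± 0.24. U3:54Aa was between -0.16 and 0.08 in the 4 comparisons. U3:54Ab was lower by value, at -0.43 ± 0.25 and -0.08 ± 0.26 in wild type and -0.62 ± 0.15 and -0.38 ± 0.16 in Δmimi, and in Δmimi granules 1 it missed the threshold by edgeR (adjusted p = 0.064) but passed with the replicate block (adjusted p = 4.6e-05) and by DESeq2 (adjusted p = 0.027). Copies of one RNA can share reads, so the values of single U3 genes are uncertain.

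None of the scaRNAs tested was called in any comparison. scaRNA:MeU5-C46, from CG1142 on chromosome 3R (7472907 to 7473222, minus strand), had 360, 400 and 464 CPM in wild-type lysates, 355, 618 and 374 CPM in granules 1 and 344, 575 and 461 CPM in granules 2. In Δmimi it had 334, 284 and 358 CPM in lysates, 295, 230 and 340 CPM in granules 1 and 284, 231 and 367 CPM in granules 2. Every Δmimi lysate lay below every wild-type lysate, but the log2 fold change of -0.33 ± 0.15 is under the fold limit and its adjusted p was 0.38 by edgeR (0.025 with the replicate block). The other 11 were 1 or more orders of magnitude lower. scaRNA:PsiU2-38.40.42 had 27.1 CPM per kb, MeU2-48 25.0, PsiU1-6 12.2, PsiU5-44 11.9, MeU2-G25 11.2, MeU4-A65 9.78, PsiU2-55 7.41, MeU5-U42 7.14, MeU2-C41 4.71, PsiU2-35.45 3.99 and PsiU6-40 3.53 CPM per kb. Of these, PsiU2-38.40.42, MeU2-48, PsiU1-6, PsiU5-44 and MeU2-G25 could be tested in wild-type granules 1, with log2 fold changes between -0.91 and 0.39. MeU2-C41 had 1.10, 0.935 and 1.03 CPM in wild-type lysates and 0.159, 0.152 and 0.536 CPM in granules 1, which do not overlap, but was below the filter.

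C/D names were few and mostly low. snoRNA:Or-CD2, from the noncoding host gene Uhg4 on chromosome 2R (9097030 to 9097169, plus strand), was the exception in level, with 35.1, 47.3 and 52.0 CPM in wild-type lysates and 41.8, 44.1 and 44.0 CPM in Δmimi lysates. It overlaps an exon of Ctu1 on the other strand. In granules 1 it had 23.5, 51.6 and 25.4 CPM in wild type and 32.2, 46.9 and 40.1 CPM in Δmimi, and the groups overlapped in both genotypes. Me28S-A1322, from eEF1alpha1, was at -0.50 ± 0.26 in wild-type granules 1 and Or-CD10, from RpL7A, at -0.45 ± 0.35, while Me18S-C1968, from Swim, was at 0.32 ± 0.45. None of these 4 passed in any granule comparison, with or without the block. The other 6 had 54 to 91 counts each and were not tested. A difference between H/ACA and C/D names was not tested.

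In Δmimi the H/ACA names again had the higher values. Of 106 RNAs tested in granules 1, 72 lay above 0 with a median of 0.26, and of 108 in granules 2, 79 with a median of 0.30, where all genes had medians of -0.03 and -0.02. Without replicate 3 the median in granules 2 was 0.20. H/ACA names had medians of 0.30 and 0.37. In granules 1, 1 RNA rose and 5 fell, where 2.65% of all genes rose and 2% fell, and in granules 2, 2 rose and 6 fell, where 2.43% rose and 1.9% fell. With the replicate block 16 rose and 10 fell in granules 1, where 5.54% of all genes rose and 8.67% fell, and 26 rose and 8 fell in granules 2, where 6.33% and 8.51% did. In both fractions the calls without the block went from 6 and 8 to 1 without replicate 1, to 1 without replicate 2 and to 0 without replicate 3. Fewer libraries enter these fits, and their shares over all genes are not given here, so whether the drop is particular to these RNAs was not tested.

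Those that rose in Δmimi were Psi28S-1180 in granules 1 and Psi18S-1086 and SC35-a in granules 2. snoRNA:Psi28S-1180, from tou on chromosome 2R (11591341 to 11591485, minus strand), had 10.6, 12 and 10.2 CPM in Δmimi lysates, 20.5, 25.5 and 26.2 CPM in granules 1 and 15.3, 27.9 and 21.7 CPM in granules 2. It rose by 1.13 ± 0.15 in granules 1 (adjusted p = 0.0090, edgeR) and was at 0.98 ± 0.22 in granules 2 (adjusted p = 0.055, edgeR, and 1.2e-06 with the replicate block). In wild type it had 6.74, 8.95 and 12.4 CPM in lysates, 20.9, 13.9 and 14.1 CPM in granules 1 and 21.9, 21.0 and 18.1 CPM in granules 2, so in both genotypes the granule libraries lay above the lysates. snoRNA:SC35-a had 9.29, 6.15 and 9.64 CPM in Δmimi lysates and 17.3, 14.6 and 16.5 CPM in granules 2, a rise of 0.95 ± 0.21 (adjusted p = 0.047, edgeR).

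Most RNAs had higher values than their host genes in the granule comparisons. Of 96 RNAs tested together with their host in wild-type granules 1, 70 had a higher log2 fold change than the host, and the numbers were 73 of 92, 64 of 89 and 70 of 90 in wild-type granules 2, Δmimi granules 1 and Δmimi granules 2. The medians of the hosts were -0.08, -0.11, -0.17 and -0.20, and those of these RNAs 0.44, 0.52, 0.27 and 0.33. Of the 57 hosts in the table, all were tested in wild-type granules 1, where 3 rose (Swim, bur and Gp210) and 5 fell, each of the 5 a ribosomal protein gene (RpL30, RpS20, RpL36A, RpS9 and RpL10Ab). RNAs from ribosomal protein genes had medians of 0.55 and 0.71 in the wild-type fractions and of 0.33 and 0.44 in the Δmimi fractions. Those from other genes had 0.28, 0.31, 0.17 and 0.23. By host, the medians in wild-type granules 1 were 1.02 for RpL17 (3 RNAs), 0.85 for RpS7 (7), 0.75 for pAbp (3), 0.73 for RpS16 (4), 0.69 for dom (8), 0.59 for Hrb98DE (7), 0.42 for RpS5a (13) and 0.23 for kra (8). The host dom was itself at 0.30 ± 0.13 in wild-type granules 1, and in Δmimi granules 1 it was at 0.44 ± 0.11 against a median of 0.40 for its 7 RNAs tested.

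The genotype difference in granule enrichment was tested as an interaction in 12 libraries, as Δmimi minus wild type. Of 110 RNAs tested for granules 1 and 107 for granules 2, 0 were called in either by edgeR and 0 by DESeq2, and 4 and 2 had an unadjusted p under 0.05. Over all genes 0.0102% and 0% were called, and 2.61% and 2.36% had such a p. The medians of the differences were -0.18 and -0.16, and 36 of 110 and 34 of 107 RNAs lay above 0. The medians depended on single wild-type preparations: for granules 1 it was 0.05 without replicate 2 and -0.42 without replicate 3, and for granules 2 it was -0.02 without replicate 2. With the replicate block 2 RNAs were called for granules 2, where 0.463% of all genes were. Psi18S-1086, from Sf3b3 on chromosome 3L (833062 to 833209, minus strand), had 26.0, 35.7 and 32.3 CPM in wild-type lysates and 29.1, 32.5 and 32.4 CPM in granules 2, against 27.9, 32.2 and 25.1 CPM and 41.0, 48.3 and 47.5 CPM in Δmimi. Its difference of 0.68 ± 0.15 had an adjusted p of 0.048 by edgeR with the block. For Psi28S-2566 the difference was -0.62 ± 0.13 with the same adjusted p, that is, a larger fall in Δmimi.

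The study defined components of mimi granules by a rule on both genotypes, and this was applied here as well. In each of the fractions the log2 fold change in wild type has to exceed that in Δmimi by over 0.5, or it has to be positive and significant, which must not also hold in Δmimi. The significance was read here as an adjusted p below 0.05 by edgeR, a choice that the study does not state for this rule. Of 102 RNAs that could be judged, 10 passed (9.80%), where 3.76% of 9411 genes did, and with the genotypes exchanged 2 passed (1.96%), where 1.07% of genes did. The 10 were Psi28S-3436a, Psi28S-3436b, Psi28S-2626, Psi18S-1377b, Psi28S-2149, Psi28S-1192c, Psi18S-1854a, Psi18S-996, CG32479-a and CG32479-b. The last 3 passed without a rise in wild type, as they fell in Δmimi. None of the 10 was called in the interaction test, with or without the block. The 2 that passed the exchanged rule were snoRNA:229, which fell in both genotypes, and Psi18S-1086. The rule was not applied with a replicate left out, and the medians of the genotype differences depended on wild-type replicate 2.

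The wash between the fractions left these RNAs with no called difference. Granules 2 against granules 1 called 0 of 105 RNAs in wild type and 0 of 109 in Δmimi by edgeR, and 0 by DESeq2, with 1 and 2 at an unadjusted p under 0.05. Over all genes 0% and 0% were called and 1.02% and 0.565% had such a p. The median log2 fold changes of the RNAs were 0.02 and 0.05.

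The proteins that work with these RNAs showed no called change. Of 4 H/ACA proteins (the pseudouridine synthase Nop60B, NHP2, Nop10 and Gar1), 3 C/D proteins found by symbol (the methyltransferase Fib, Nop56 and nop5) and 9 genes of assembly, maturation or Cajal bodies (among them Nopp140 and the Cajal body scaffold coil), 0 passed in the lysates or in any granule comparison. Nop60B was at 0.92 ± 0.30 (adjusted p = 0.22, edgeR) and Nopp140 at 0.71 ± 0.21 (adjusted p = 0.19, edgeR) in Δmimi over wild-type lysates, and Nop10 at -1.26 ± 0.36 in wild-type granules 1 (adjusted p = 0.069, edgeR). Of 7 Uhg genes, noncoding hosts of snoRNAs, 5 were tested and 0 passed. Other nuclear RNAs lay on the other side of 0: of 14 snRNA genes tested in wild-type granules 1, 10 fell and 0 rose, with a median of -1.02, and in Δmimi granules 1, 8 of 14 fell, with a median of -0.93. The nuclear RNA roX2 was at -1.15 in wild-type granules 1 (adjusted p = 0.0072, edgeR) and roX1 at -0.45 (adjusted p = 0.26, edgeR).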

How the data were processed

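Total RNA of 18 libraries was sequenced after removal of ribosomal RNA and preparation of stranded libraries. The authors mapped the reads with STAR to dm6 and deposited whole-number counts per gene from featureCounts in snakePipes, on the annotation of Ensembl release 96, without normalization. Versions, the strand setting and the treatment of reads with several matches are not given in the sources used here. Replicates were not pooled, and 0 columns were left unused. Symbols, positions and lengths came from a later annotation of the same assembly (17252 identifiers matched, 306 not). Genes of both genotypes were grouped by the labels.

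All genes with a base mean above 10 were fitted in edgeR version 4.0.16 (R version 4.3.3) with TMM scaling and no covariate and tested by its quasi-likelihood F test, with Benjamini-Hochberg adjustment. SE was taken from the size of the log2 fold change and the root of F. Alternatives were the replicate block, DESeq2 version 1.42.0, its size factors, total counts, other filters and leaving out each replicate. The fit was checked on simulated data. Granule fractions share a lysate per preparation by the design, and same-numbered libraries deviated together, also between the lysates of the 2 genotypes (r from 0.386 to 0.806). The labels do not say whether preparations of both genotypes were made together. In the lysate comparison p-values measure the spread between these preparations. In the granule comparisons the fit without the block treats paired libraries as independent, and the fit with the block takes the pairing into account. Depth was 3635256 to 7798946 counts. Intervals were taken on summed counts, so they cover counting error only and not the spread between preparations. PCR copies of a molecule were not marked.

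For each comparison the 6 called RNAs with the largest change in each direction, the 6 with the highest CPM, all scaRNAs, the U3 genes and those around the limit of 50 counts were named. The C/D names tested and other RNAs outside this rule were named after their values had been seen. The RNAs and the lists were chosen with earlier results of these data known.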

Additional observations from a re-analysis of the deposited data

Results flagged for a closer look

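The change from lysate to granules 2 differed between the genotypes for 2 RNAs in the fit with the replicate block. In that fit 0.463% of all genes were called. For snoRNA:Psi18S-1086 the difference of the log2 fold changes, Δmimi minus wild type, was 0.68 ± 0.15 (SE), and for snoRNA:Psi28S-2566 it was -0.62 ± 0.13, each with an adjusted p of 0.048 by edgeR. Granules 2 lay above the lysate in 3 of 3 Δmimi preparations for Psi18S-1086, and below it in all 6 preparations for Psi28S-2566. Without the block neither passed.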

How the results depend on the processing

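The number of RNAs called rose in the fits with the replicate block. It went from 0 to 5 in the lysates, from 6 to 34 in wild-type granules 1, from 9 to 46 in wild-type granules 2, from 6 to 26 in Δmimi granules 1, from 8 to 34 in Δmimi granules 2 and from 0 to 2 for the genotype difference in granules 2. It stayed at 0 for the genotype difference in granules 1 and for the wash in both genotypes. Calls over all genes rose with the block as well. In the lysates the share called higher went from 0.86% to 5.45% and the share called lower from 0.778% to 4.03%. In wild-type granules 1 these shares went from 4.81% to 7.29% and from 3.36% to 9.44%. In Δmimi granules 1 they went from 2.65% to 5.54% and from 2% to 8.67%. DESeq2 called 1 of the RNAs in the lysates, 16 in wild-type granules 1 and 20 in wild-type granules 2. For DESeq2 and the fits that follow, the shares over all genes are not given here. With a base mean above 50 the number of RNAs called was 3 in wild-type granules 1, partly because fewer genes are tested. Without a filter it was 14 in wild-type granules 2. When 1 replicate was left out the count ranged from 0 to 10 in wild-type granules 1, from 0 to 6 in wild-type granules 2, from 0 to 1 in Δmimi granules 1 and from 0 to 1 in Δmimi granules 2. The cause of these changes was not tested, other than that fewer libraries enter. Every RNA named as called without the block kept its direction under all alternatives, and of 87 values with 1 replicate left out 73 no longer passed. Medians of the RNAs were also recomputed under the alternatives to the fit, a choice made after seeing the data. Without replicate 2 the median in wild-type granules 1 went from 0.42 to 0.15, and that of the genotype difference in granules 1 from -0.18 to 0.05 without wild-type replicate 2. The group of all names with Me or Or had 20 RNAs, against 10 C/D names. Those added are scaRNAs with Me and Or-aca names, the latter read here as H/ACA. In wild-type granules 1, 6 of 10 C/D names and 6 of 12 scaRNAs were below the filter.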
